A study of Homo sapiens with 6 samples.

Results

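The 10 genes described here encode the nuclear end of the canonical Wnt pathway in human cells. They were chosen by symbol and all 10 were found among the 20494 genes of the deposited RPKM table (reads normalised to gene length and library size). LEF1, TCF7, TCF7L1 and TCF7L2 are the DNA-binding TCF/LEF factors, CTNNB1 encodes beta-catenin, BCL9, BCL9L and PYGO2 are co-activators that beta-catenin recruits, and TLE1 and TLE3 are Groucho-type co-repressors. All 10 averaged at least 1 RPKM across the libraries. So did 11881 genes in all, which form the background for every count, without the transfected kinase of a comparison. The cells were PA-1, an established human line from an ovarian teratocarcinoma. Wnt3a cells took 200 ng of the ligand for 16 h. RIPK4, RIPK3, RIPK2 and RIPK1 cells took 8 µg of plasmid for the receptor-interacting kinase of that name for 48 h, and Vector cells took 8 µg of the empty plasmid pCDNA3.1 for 48 h. The labels list Wnt3a under transfection as well, without saying whether those cells also took a plasmid, so ligand, plasmid and time cannot be told apart in any difference of Wnt3a from the others. The share of cells that took up a plasmid is not given.

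TCF/LEF factors sit on Wnt-responsive elements in both states of the pathway. Without signal they hold TLE co-repressors. When beta-catenin escapes its destruction complex and enters the nucleus, it binds the TCF/LEF amino terminus, displaces TLE and brings in BCL9 or BCL9L, which in turn bind the PHD finger of a Pygopus protein. LEF1 and TCF7 are themselves known Wnt target genes in several tissues, whereas TCF7L1 acts mostly as a repressor in pluripotent cells. LEF1 and TCF7 also have shorter products, made from internal promoters, that lack the beta-catenin-binding end, and gene-level RPKM does not separate them.

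Each group is 1 library, so no difference has a replicate check and no p-value is given. Library totals, recovered from the RPKM steps, were 17.2 M to 19.5 M reads. Differences are of log2(RPKM + 1), which understates those of low genes, and the line for a count was 1.5-fold on that scale (0.58). Ratios are of RPKM itself, with 95% counting intervals in brackets that cover counting error only. RIPK4 and RIPK3 transcripts stood at 17.9 and 61.4 RPKM in the libraries of their names and at 0 to 0.0384 elsewhere. RIPK2 was at 27.4 RPKM in its library against 8.50 to 11.8 in the others, and RIPK1 at 16.6 against 9.35 to 13.4. The pluripotency marker LIN28A stood at 213 to 392.5 RPKM, while NANOG was at most 0.234 RPKM and TDGF1 was at 0. Haematopoietic and trophoblast markers summed to at most 0.824 and 0.143 RPKM. Of the fibroblast markers, DCN was at 0 and LUM at most 0.0485 RPKM, but THY1 stood at 64.9 to 118. Of 5 endothelial markers, 4 averaged 1 RPKM or more, and the list summed to 48.0 to 66.8. Differences between bulk libraries do not tell apart fewer cells of a kind and less RNA per cell. Differences from Vector followed transcript GC content across genes, with a Spearman rho of 0.70 for Wnt3a, 0.67 for RIPK4, 0.54 for RIPK3, 0.67 for RIPK2 and -0.09 for RIPK1 (11779 genes). Differences with that trend subtracted are given beside many results, but not beside every result that it moves. What part the trend has in the differences was not tested.

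LEF1, TCF7 and TLE3 were higher with Wnt3a and, by less, with RIPK4. LEF1 (gene identifier 51176, chromosome 4) stood at 7.31 RPKM with Wnt3a, 4.73 with RIPK4, 4.09 with RIPK3, 3.92 with RIPK2, 2.95 with RIPK1 and 2.75 in Vector, from 519, 332, 299, 290, 221 and 182 reads. The Wnt3a library was thus highest and RIPK1 and Vector lowest, with the other kinases between. In this order the step between Wnt3a and RIPK4 (1.55-fold, 1.34 to 1.78) and that between RIPK2 and RIPK1 (1.33-fold, 1.11 to 1.59) exceeded counting error, and the intervals of the other 3 steps included 1. Against Vector, LEF1 was 2.66-fold higher with Wnt3a (2.24 to 3.16) and 1.72-fold with RIPK4 (1.43 to 2.07). It was also 1.49-fold higher with RIPK3 (1.23 to 1.79) and 1.43-fold with RIPK2 (1.18 to 1.73), short of the 1.5-fold line on the log2(RPKM + 1) scale at 0.44 and 0.39.

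TCF7 (6932, chromosome 5), the T-cell factor TCF1, stood at 10.4 RPKM with Wnt3a, 7.60 with RIPK4, 5.16 with RIPK3, 4.97 with RIPK2, 4.19 with RIPK1 and 4.59 in Vector. Here Wnt3a and RIPK4 stood apart from each other and from the remaining 4 libraries. Among those 4 no step between neighbours in the order exceeded counting error. The interval of RIPK3 (4.71 to 5.64 RPKM) nonetheless lay above that of RIPK1 (3.79 to 4.62 RPKM). TCF7 was 2.28-fold higher with Wnt3a than in Vector (2.02 to 2.57) and 1.66-fold with RIPK4 (1.46 to 1.88). The intervals for RIPK3 (0.983 to 1.29), RIPK2 (0.946 to 1.24) and RIPK1 (0.793 to 1.05) all included 1. RIPK2 and RIPK3 therefore held a higher LEF1 level than Vector beyond counting error, while TCF7 was within it. The LEF1 and TCF7 intervals overlapped in both libraries, and the difference between these genes was not tested. With the GC trend subtracted, LEF1 differences were 0.35 with RIPK3 and 0.30 with RIPK2, and those of TCF7 were -0.04 and -0.14.

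TLE3 (7090, chromosome 15), although a co-repressor, had its 6 libraries in the same order as LEF1. It stood at 19.5 RPKM with Wnt3a, 15.7 with RIPK4, 12.2 with RIPK3, 11.9 with RIPK2, 10.4 with RIPK1 and 10.1 in Vector. Wnt3a was again highest and RIPK4 next, each step past counting error (1.24-fold, 1.17 to 1.32, and 1.28-fold, 1.20 to 1.38). Relative to Vector, TLE3 was 1.93-fold higher with Wnt3a (1.80 to 2.08) and 1.56-fold with RIPK4 (1.44 to 1.68). It was also higher beyond counting error with RIPK3 (1.21-fold, 1.12 to 1.31) and RIPK2 (1.18-fold, 1.09 to 1.28), but with the GC trend subtracted those log2(RPKM + 1) differences were 0.05 and -0.05.

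These were the 3 members past 1.5-fold with Wnt3a, where 7.95% of all genes were that much higher, and also the 3 with RIPK4, where 4.92% were. No member was 1.5-fold lower in either comparison as deposited, against 8.87% and 3.08% of all genes. LEF1 and TCF7 also passed 2-fold with Wnt3a, at 1.15 and 1.03, as 0.673% of genes did. The median difference over the 10 members was 0.21 with Wnt3a and 0.28 with RIPK4, beside 0.04 and 0.05 over all genes. Those member medians were -0.09 and 0.03 once the GC trend was subtracted, beside 0.004 and 0.003 over all genes. With the GC trend subtracted, LEF1 and TCF7 kept 0.97 and 0.74 with Wnt3a while TLE3, at 0.56, came just under the line. With RIPK4 all 3 then came under it, at 0.47, 0.37 and 0.31. Rescaling the libraries by median ratios had the same effect there (0.56, 0.57 and 0.53) and changed the split of all genes past 1.5-fold with RIPK4 to 391 higher and 515 lower, against 584 and 366 as deposited. SOX2, a pluripotency factor, stood at 48.1 RPKM with Wnt3a and 78.1 with RIPK4, where these 3 genes were past the line, and at 68.5 with RIPK3, 63.2 with RIPK2 and 133 with RIPK1, against 149 in Vector. The 9 pluripotency markers together, PODXL and LIN28A being the largest parts, summed to 1023 RPKM with Wnt3a and 1153 with RIPK4, against 1128 in Vector. The part of this in the results was not tested. The direction of the 3 genes was higher than Vector under every setting tried in both libraries.

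**Figure D1:**
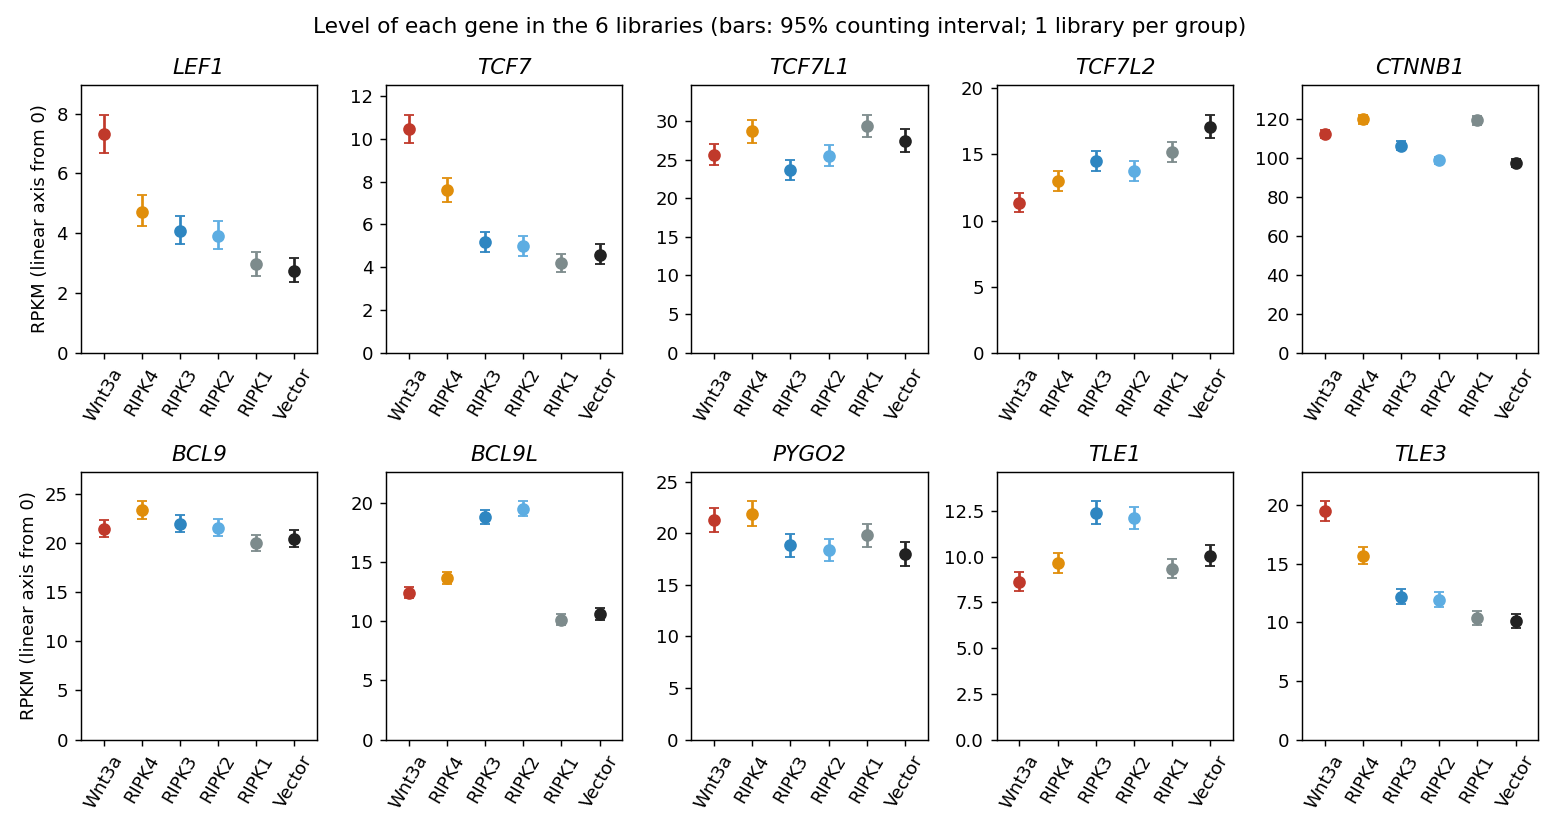
RPKM of each of the 10 genes (vertical axes, linear from 0) in the 6 libraries, with 95% counting intervals as bars and 1 library per group. LEF1, TCF7 and TLE3 are highest with Wnt3a and next with RIPK4, TCF7L2 is lowest with Wnt3a at 11.4 RPKM and highest in Vector at 17.1, and BCL9L is highest with RIPK2 and RIPK3 at 19.5 and 18.8.

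TCF7L2 (6934, chromosome 10), the TCF4 protein that carries much of the Wnt response in gut epithelium, ran the other way. It stood at 11.4 RPKM with Wnt3a, 13.0 with RIPK4, 14.5 with RIPK3, 13.8 with RIPK2, 15.2 with RIPK1 and 17.1 in Vector. Vector was above every other library beyond counting error, and Wnt3a was below the next lowest, RIPK4, beyond it too. TCF7L2 was 1.51-fold lower with Wnt3a than in Vector (1.39 to 1.63) and 1.32-fold with RIPK4 (1.22 to 1.42), which on the log2(RPKM + 1) scale gave -0.55 and -0.37 and so did not reach the 1.5-fold line. With a pseudocount of 0.1 or with median-ratio scaling the Wnt3a value was past it, at -0.59 and -0.59. For the deposited values, 10.1% and 10.7% of all genes lay lower than TCF7L2 in the Wnt3a and RIPK4 comparisons. With the GC trend subtracted the differences were -0.48 and -0.32.

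TCF7L1 (83439, chromosome 2), the TCF3 protein that restrains pluripotency genes in embryonic stem cells, was the most abundant of the 4 factors per length in every library. Its levels were 25.6 RPKM with Wnt3a, 28.6 with RIPK4, 23.6 with RIPK3, 25.5 with RIPK2, 29.3 with RIPK1 and 27.5 in Vector. The libraries lay close together, with a highest-to-lowest ratio of 1.24, and of the differences from Vector the interval of RIPK3 alone left out 1 (1.16-fold lower, 1.08 to 1.26). TCF7L1 transcripts are GC-rich (61.2%), and with the trend subtracted its difference was -0.47 with Wnt3a, -0.28 with RIPK4, -0.45 with RIPK3 and -0.43 with RIPK2, still within 1.5-fold.

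The make-up of TCF/LEF transcripts differed more than their sum. The 4 factors summed to 54.8 RPKM with Wnt3a, 53.9 with RIPK4, 47.3 with RIPK3, 48.2 with RIPK2, 51.6 with RIPK1 and 51.9 in Vector. LEF1 held 13.3% of that sum with Wnt3a, 8.76% with RIPK4, 8.64% with RIPK3, 8.14% with RIPK2, 5.72% with RIPK1 and 5.30% in Vector. LEF1 and TCF7 together made up 32.4% with Wnt3a and 22.9% with RIPK4, against 14.1% in Vector, while TCF7L2 made up 20.7% and 24.1%, against 33.0%. TCF7 reached 0.920 times the TCF7L2 level with Wnt3a (0.842 to 1.01) and 0.586 times with RIPK4 (0.532 to 0.644), against 0.268 in Vector (0.24 to 0.30). In RIPK3 and RIPK2 cells this ratio was 0.357 (0.321 to 0.396) and 0.361 (0.325 to 0.402), and in RIPK1 cells 0.276 (0.247 to 0.309). Ratios of 2 genes within a library do not depend on scaling between libraries, but the transcripts of TCF7 and TCF7L2 differ in GC content (57.1% and 45.8%).

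**Figure D2:**
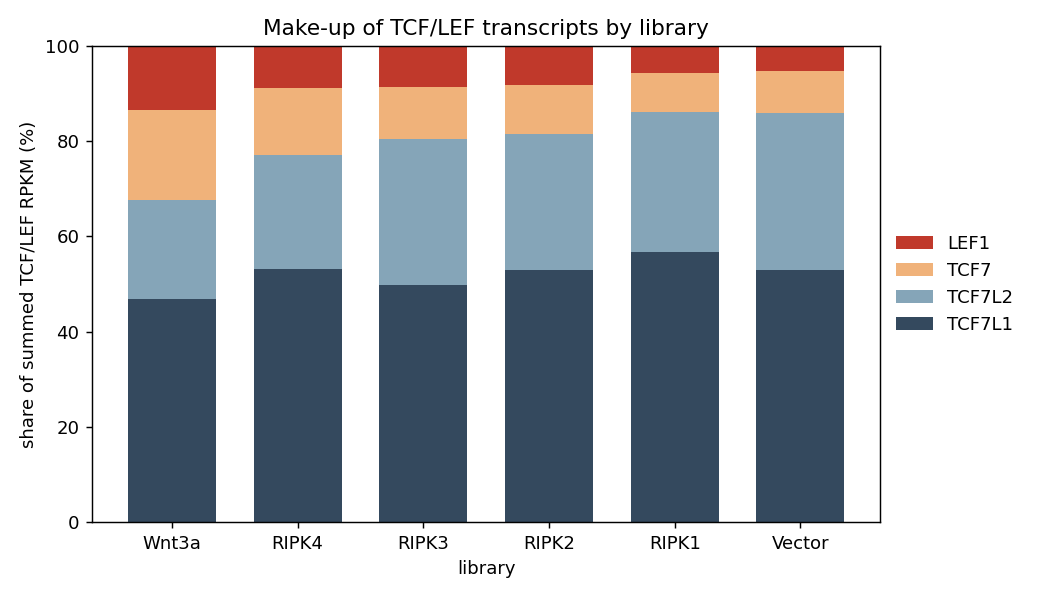
Share of the summed RPKM of the 4 TCF/LEF genes (vertical axis, percent) held by each gene in each library, 1 library per group. LEF1 and TCF7 together take 32.4% with Wnt3a and 22.9% with RIPK4, against 14.1% in Vector, and TCF7L1 takes the largest share in all 6 libraries.

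Promoter windows of the members were searched for the TCF/LEF core CTTTG. The windows were the 250 bases before each RefSeq transcript start (GRCh38.p14, matched by gene identifier). They covered 9 of the 10 members with 14 starts. The core, on either strand, was in 5 of the 14 windows, beside 42.1% of 35116 windows genome-wide. The longer forms CTTTGAT and CTTTGAA were in none, beside 2.26% and 3.8%, and CTTTGTT, which contains the core, was in a window of TCF7 and in a window of TCF7L2, beside 4.5%. The core was therefore no more frequent in these windows than in all windows. One window with a core is shown for each of the 4 genes that had any, so that the strings counted can be seen. The TCF7 window (chr5:134123368-134123617, plus strand) precedes an internal start, overlaps no annotated TCF7 exon and has cores 216 and 48 bases before that start. The TCF7L2 window (chr10:113126383-113126632, plus strand) also precedes an internal start, overlaps no annotated exon of the gene and has cores 222, 189 and 133 bases before it. For LEF1 (chr4:108166409-108166437, minus strand) and TLE3 (chr15:70096969-70096997, minus strand), whose windows lie wholly (LEF1) or for 228 of 250 bases (TLE3) in annotated exons of the gene, 29 bases around the single core are shown. The sequences run 5′ to 3′ on the strand of the gene, and capitals mark the core or its reverse complement CAAAG.
TCF7 internal start: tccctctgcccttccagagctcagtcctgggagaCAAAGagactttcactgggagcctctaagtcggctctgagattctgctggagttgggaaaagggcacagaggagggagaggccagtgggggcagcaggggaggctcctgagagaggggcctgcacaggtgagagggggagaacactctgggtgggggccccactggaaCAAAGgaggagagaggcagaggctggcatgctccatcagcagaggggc
TCF7L2 internal start: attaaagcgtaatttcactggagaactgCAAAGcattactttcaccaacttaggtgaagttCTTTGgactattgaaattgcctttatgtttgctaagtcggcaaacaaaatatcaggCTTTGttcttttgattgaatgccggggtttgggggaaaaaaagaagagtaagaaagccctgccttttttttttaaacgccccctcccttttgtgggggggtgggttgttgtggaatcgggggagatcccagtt
LEF1: gccttttccctcCAAAGaaacttggagga
TLE3 second start: tgctccgcggctCTTTGtctccacttggg
The third TCF7L2 start had a single core, 114 bases before it. A match here is a string of letters, not a shown binding site, and Wnt-responsive elements often lie outside such windows.

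CTNNB1 (1499, chromosome 3) was the most abundant member in all 6 libraries. Beta-catenin is regulated mainly through its protein, which RNA sequencing does not measure. CTNNB1 transcripts stood at 112 RPKM with Wnt3a, 120.0 with RIPK4, 107 with RIPK3, 98.9 with RIPK2, 119.5 with RIPK1 and 97.6 in Vector. RIPK4 and RIPK1 were highest and within counting error of each other (interval of their ratio 0.978 to 1.03), and RIPK2 and Vector were lowest. The ratio to Vector was 1.15 with Wnt3a (1.12 to 1.19), 1.23 with RIPK4 (1.19 to 1.27), 1.09 with RIPK3 (1.06 to 1.12) and 1.22 with RIPK1 (1.19 to 1.26). With the GC trend subtracted, its log2(RPKM + 1) differences were 0.41 with Wnt3a, 0.44 with RIPK4, 0.26 with RIPK3 and 0.25 with RIPK2, against 0.20, 0.30, 0.13 and 0.02 as deposited. The narrow intervals rest on about 7970 to 11041 reads, approximated from a GENCODE transcript length because no length could be solved for this gene. Per length, CTNNB1 was 2.05 times the summed TCF/LEF level with Wnt3a and 2.23 times with RIPK4, against 1.88 times in Vector. It was 2.25 times with RIPK3, 2.05 times with RIPK2 and highest with RIPK1 at 2.315 times.

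Among the co-activators, BCL9L separated RIPK2 and RIPK3 from the other libraries, and BCL9 and PYGO2 varied little. BCL9L (283149, chromosome 11), one of the vertebrate counterparts of fly Legless, stood at 12.4 RPKM with Wnt3a, 13.7 with RIPK4, 18.8 with RIPK3, 19.5 with RIPK2, 10.1 with RIPK1 and 10.6 in Vector. RIPK2 and RIPK3 were within counting error of each other and 1.38-fold or more above the next library, RIPK4. Against Vector BCL9L was 1.84-fold higher with RIPK2 (1.74 to 1.94) and 1.77-fold with RIPK3 (1.68 to 1.87). It was the 1 member past 1.5-fold in each of these comparisons, at 0.82 and 0.77, where 7.56% and 6.02% of all genes were that much higher. None was lower, against 6.52% and 3.36% of all genes. BCL9L has the highest GC content of the 10 (62.6%), and with the GC trend subtracted its differences came under the line at 0.47 with RIPK2 and 0.52 with RIPK3. Those with Wnt3a and RIPK4 changed sign, to -0.18 and -0.02 from 0.21 and 0.34 as deposited. It also shares 3925 exon bases with CXCR5, a gene on the opposite strand, in GENCODE 29. LEF1, TCF7L2 and PYGO2 share 279, 300 and 149 exon bases with antisense transcripts, and the other 6 members share none. Whether strand was used in counting is not given in the sources used here, and CXCR5 stood at 1.90 RPKM (111 reads) with RIPK2 and 1.31 (76 reads) with RIPK3, against 0.555 (29 reads) in Vector. The part of these overlapping reads in the BCL9L values was not tested. The same 2 libraries had the lowest summed pluripotency markers, 750.3 RPKM with RIPK2 and 794 with RIPK3 against 1128 in Vector. They also had the highest summed fibroblast markers (129 and 130, against 90.03 in Vector) and endothelial markers (60.6 and 66.8, against 52.6). Single markers went both ways. THY1 carried the fibroblast sum at 117.5 RPKM with RIPK2 and 118 with RIPK3 against 79.2 in Vector, while PDGFRA stood at 5.53 and 6.10 against 7.10. Of the endothelial markers, KDR stood at 12.3 and 12.4 against 6.84, and TEK at 9.59 and 10.6 against 11.1. PODXL and LIN28A carried the pluripotency sum. PODXL stood at 399 RPKM with RIPK2 and 402 with RIPK3 against 564 in Vector, and LIN28A at 213 and 241 against 339. SALL4 stood at 40.3 and 40.4 against 37.7, and POU5F1 was at 17.2 RPKM with RIPK3 against 13.04 in Vector. The part of these in the result was not tested.

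BCL9 (607, chromosome 1), the paralog of BCL9L, stood at 21.4 RPKM with Wnt3a, 23.3 with RIPK4, 21.9 with RIPK3, 21.6 with RIPK2, 20.01 with RIPK1 and 20.4 in Vector. Its highest-to-lowest ratio of 1.17 was the smallest of the 10. As deposited, its differences from Vector were 0.07 with Wnt3a, 0.18 with RIPK4, 0.10 with RIPK3 and 0.07 with RIPK2. Subtracting the GC trend made them -0.13, 0.03, -0.01 and -0.05. The BCL9L level was 0.906 times that of BCL9 with RIPK2 (0.863 to 0.952) and 0.857 times with RIPK3 (0.815 to 0.901), against 0.520 times in Vector (0.489 to 0.552). With Wnt3a and RIPK4 it was 0.579 (0.548 to 0.612) and 0.586 (0.555 to 0.618). BCL9L and BCL9 transcripts differ in GC content (62.6% and 53.0%), and the part of the GC trend in this ratio was not tested. PYGO2 (90780, chromosome 1), the Pygopus protein that reads methylated histone H3, stood at 21.3 RPKM with Wnt3a, 21.9 with RIPK4, 18.8 with RIPK3, 18.3 with RIPK2, 19.8 with RIPK1 and 18.0 in Vector. No neighbouring pair in the PYGO2 order exceeded counting error. Against Vector it was 1.22-fold higher with RIPK4 (1.12 to 1.32) and 1.18-fold with Wnt3a (1.09 to 1.29), differences that with the GC trend subtracted were 0.03 and -0.05.

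TLE1 (7088, chromosome 9), the other co-repressor, was ordered differently from TLE3. It stood at 8.62 RPKM with Wnt3a, 9.66 with RIPK4, 12.4 with RIPK3, 12.1 with RIPK2, 9.35 with RIPK1 and 10.1 in Vector. RIPK3 and RIPK2 were above Vector beyond counting error (1.23-fold, 1.14 to 1.33, and 1.20-fold, 1.12 to 1.30), and Wnt3a was below it (1.17-fold lower, 1.07 to 1.27). With the GC trend subtracted, the TLE1 differences were 0.09 with RIPK3, -0.0023 with RIPK2 and -0.51 with Wnt3a, against 0.28, 0.25 and -0.20 as deposited. The ratio of TLE3 to TLE1 was 2.26 with Wnt3a (2.10 to 2.43) and 1.62 with RIPK4 (1.51 to 1.75), against 1.002 in Vector (0.922 to 1.09). It was 0.984 with RIPK3 (0.915 to 1.06), 0.986 with RIPK2 (0.917 to 1.06) and 1.11 with RIPK1 (1.03 to 1.20). GC content was 58.6% for TLE3 and 57.6% for TLE1 transcripts.

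**Figure D3:**
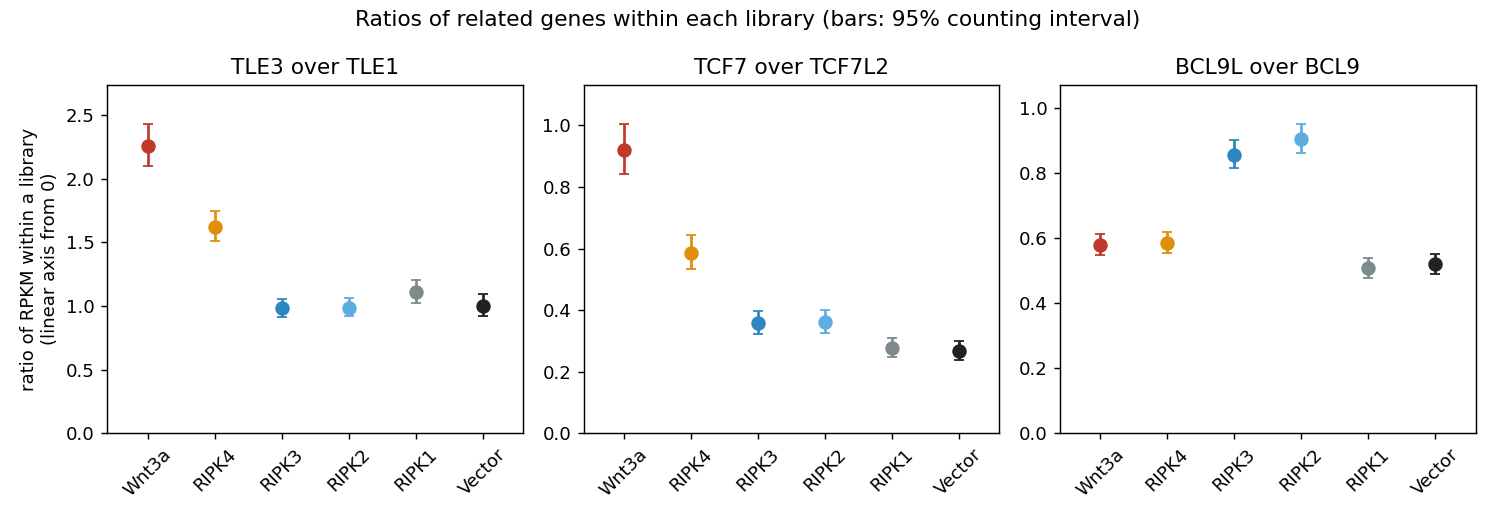
Ratio of RPKM between 2 related genes within each library (vertical axes, linear from 0), with 95% counting intervals as bars. TLE3 over TLE1 and TCF7 over TCF7L2 are highest with Wnt3a and next with RIPK4, and BCL9L over BCL9 is highest with RIPK2 and RIPK3. Transcripts of TCF7 and TCF7L2, and those of BCL9L and BCL9, differ in GC content.

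With RIPK1 the members stayed near Vector. RIPK1 transcripts themselves stood at 16.6 RPKM in this library against 12.8 in Vector. No member was 1.5-fold higher or lower, where 0.901% of all genes were higher and 1.76% lower. Of the 10 ratios to Vector, 7 had intervals that included 1, while CTNNB1 (1.22-fold) and PYGO2 (1.10-fold, 1.01 to 1.20) were higher and TCF7L2 was lower (1.13-fold, 1.05 to 1.21). Intervals left out 1 for 44.7% of all genes in this comparison, in either direction. All genes were not matched to the members by reads, on which the width of an interval depends. CTNNB1, at 0.29, lay above 93.1% of all genes in the RIPK1 comparison. The 5 comparisons with Vector share that library, so a value that is high or low in Vector moves all of them at once.

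**Figure D4:**
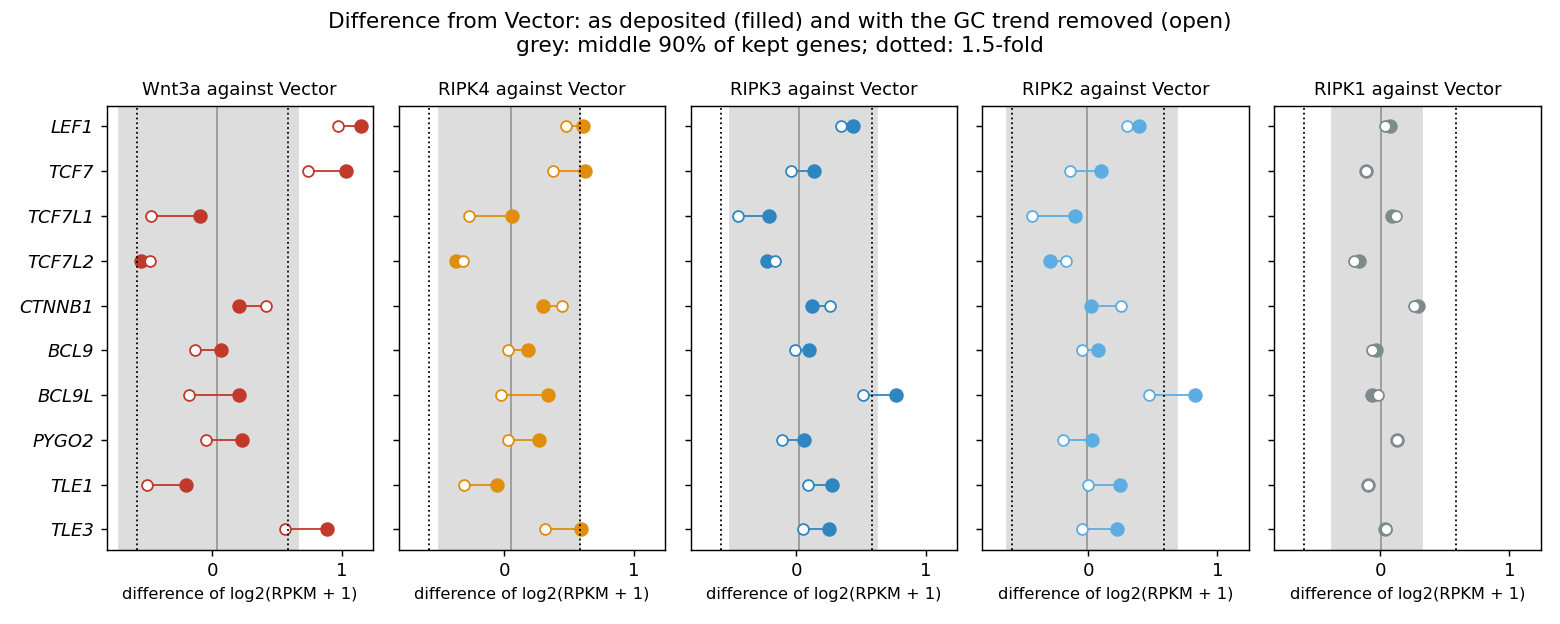
Difference of log2(RPKM + 1) from Vector for each gene in the 5 comparisons (horizontal axes), as deposited (filled points) and with the GC trend subtracted (open points). Grey bands span the 5th to 95th percentile of all 11881 genes, and dotted lines mark 1.5-fold. The filled points farthest right are LEF1 (1.15), TCF7 (1.03) and TLE3 (0.89) with Wnt3a, then BCL9L with RIPK2 (0.82) and RIPK3 (0.77).

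Set directly against Wnt3a, RIPK4 cells held less LEF1, TCF7 and TLE3. The RIPK4 level was 0.647 of the Wnt3a level for LEF1 (0.562 to 0.743), 0.727 for TCF7 (0.659 to 0.803) and 0.804 for TLE3 (0.755 to 0.857). On the log2(RPKM + 1) scale these were -0.54, -0.41 and -0.30, and 0.909%, 2.06% and 5.42% of all genes lay lower. No member was past 1.5-fold, where 1.37% of all genes were higher and 0.665% lower. The remaining 7 were between 1.03-fold and 1.14-fold higher with RIPK4, and for 6 of them the interval left out 1, PYGO2 being the exception. Counting the 3 lower members, 9 of 10 intervals left out 1, as did 47% of those of all genes. TCF7L2 was among these at 1.14-fold (1.05 to 1.24). Because intervals narrow with more reads and members were not matched to all genes by reads, the shares are not like for like.

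The other nuclear partners and regulators of beta-catenin held at most 1 gene past 1.5-fold in each comparison. Of 29 such genes 27 averaged 1 RPKM or more, and their median differences were 0.21 with Wnt3a, 0.16 with RIPK4, 0.19 with RIPK3, 0.07 with RIPK2 and 0.11 with RIPK1. In each of the first 3 comparisons 1 gene was past 1.5-fold higher, in the last 2 none was, and none was 1.5-fold lower in any. Over all genes, 7.95%, 4.92%, 6.02%, 7.56% and 0.901% were that much higher. The shares of all genes that much lower were 8.87%, 3.08%, 3.36%, 6.52% and 1.76%. RUVBL2, an ATPase of chromatin remodelling complexes that binds beta-catenin, stood at 96.4 RPKM with Wnt3a against 52.8 in Vector (1.83-fold, 1.74 to 1.92), or 0.50 with the GC trend subtracted. HIPK2, a kinase that phosphorylates TCF/LEF factors, stood at 10.4 RPKM with RIPK4 against 6.58 in Vector (0.59, or 0.54 with the trend subtracted). MED12, the Mediator subunit that links Pygopus to transcription, stood at 14.5 RPKM with RIPK3 against 9.14 in Vector (0.61, or 0.47 with the trend subtracted). With the trend subtracted, PYGO1, the paralog of PYGO2, was instead the 1 gene past the line with Wnt3a (0.60, against 0.02 as deposited) and with RIPK2 (0.96, against 0.49), and none was with the other 3. Over all genes, 2.49% were then that much higher with Wnt3a and 3.90% with RIPK2. The shares with RIPK4, RIPK3 and RIPK1 were 1.54%, 3.94% and 0.707%. PYGO1 had 110 reads with Wnt3a against 101 in Vector, and the interval of its deposited ratio included 1 (0.767 to 1.34). With RIPK2 it had 169 reads and an interval of 1.16 to 1.93. Of the other TLE genes, TLE4 stood at 8.97 RPKM with Wnt3a and 10.1 with RIPK4, against 10.9 in Vector. TLE2 and TLE6 were at most 0.108 and 0.0908 RPKM, and PYGO1 was at 4.29 to 6.42.

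Known Wnt targets outside the 10 were described beside these factors. Of 21 genes 17 averaged 1 RPKM or more, and 13 of them were past 1.5-fold higher with Wnt3a, 9 with RIPK4, 4 with RIPK3, 3 with RIPK2 and 0 with RIPK1. Over all genes these shares were 7.95%, 4.92%, 6.02%, 7.56% and 0.901%. Their median differences were 1.001, 0.77, 0.18, 0.08 and -0.11. With the GC trend subtracted the counts were 11, 9, 2, 2 and 0, beside 2.49%, 1.54%, 3.94%, 3.90% and 0.707% of all genes. The intestinal homeobox gene CDX1 stood at 18.8 RPKM with Wnt3a and 7.61 with RIPK4, against 0.0327 (1 read) in Vector. CDX2, its relative, stood at 8.48 and 5.64 against 0.638 RPKM, and the homeobox gene MSX1 at 49.8 and 37.6 against 5.90. CDX1, CDX2 and MIXL1 (3.71 and 3.28 against 0.332 RPKM) averaged 1 RPKM only through Wnt3a and RIPK4. Being kept thus fixed them as higher in those libraries, and they lend the counts there no support. Set against Wnt3a, RIPK4 was past 1.5-fold lower for 3 targets, namely CDX1, NKD1 (14.8 against 23.4 RPKM) and the ubiquitin ligase gene RNF43 (7.84 against 12.4). Of all genes, 0.665% were that much lower in this comparison. With the GC trend subtracted the count was 2, RNF43 coming under the line at -0.57, beside 76 of 11880 genes. The 4 genes with RIPK3 included MSX1 at 18.2 against 5.90 RPKM, the secreted Wnt deacylase NOTUM at 4.92 against 2.07 and cyclin D1 (CCND1) at 244 against 160 in Vector, and RIPK2 gave 17.4, 4.91 and 246 RPKM for the same genes. MYC, a target in colon cancer cells, was lower with Wnt3a at 9.70 RPKM against 15.2 in Vector (-0.59). BMP4 was lower with RIPK2 at 5.32 against 9.16 (-0.69). Past 1.5-fold lower were 8.87% of all genes with Wnt3a and 6.52% with RIPK2. The list was drawn up with earlier results of these libraries known and is not independent evidence of direction.

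Among 697 protein-coding genes with a range of at least 1 on the log2(RPKM + 1) scale, the levels most like those of TCF7 over the 6 libraries were NKD1 (Pearson r 0.994), LINGO1 (0.993), DACT1 (0.990) and CDX1 (0.986). NKD1, an antagonist of Dishevelled, stood at 23.4 RPKM with Wnt3a and 14.8 with RIPK4, against 4.39 in Vector. LINGO1, a leucine-rich repeat membrane protein, stood at 2.95 and 2.17 against 0.983 RPKM. With RIPK3, RIPK2 and RIPK1 it was at 1.01, 1.06 and 0.792 RPKM. LINGO1 and CDX1 averaged 1 RPKM only through Wnt3a and RIPK4, so being kept partly fixed their likeness to TCF7. The levels most like those of LEF1 were DPYSL4 (0.988), BLVRB (0.976), P4HA2 (0.973) and KCNG1 (0.971). DPYSL4, a dihydropyrimidinase-like protein, stood at 16.1 RPKM with Wnt3a, 11.8 with RIPK4, 10.1 with RIPK3, 10.7 with RIPK2, 7.55 with RIPK1 and 7.68 in Vector. P4HA2, a subunit of collagen prolyl hydroxylase, stood at 7.498, 5.35, 4.74, 3.60, 2.79 and 2.83 RPKM in the same order. These correlations rest on 6 libraries. The GC trend also sets Wnt3a, RIPK4, RIPK3 and RIPK2 apart from Vector, and hardly RIPK1 (rho -0.09).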

How the data were processed

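RNA of 6 PA-1 libraries, 1 per group, was sequenced by the submitters after kit extraction of total RNA and Illumina library preparation, per the labels' protocols. The authors deposited RPKM, 1 column per library, per the file headers. GSNAP, DESeq and the build hg19 are listed per the submitters' processing notes, while roles, versions, annotation and counting rule were not given in the sources used here. Columns were matched to samples by title.

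A mean of 1 RPKM or more was required (11881 of 20494), and differences of log2(RPKM + 1) were taken. Reads were recovered by finding, for each gene, a length (15 to 30000 bases) at which all 6 values are whole reads within the rounding of 5 significant digits, which solved 97.6% of kept genes and 9 of the 10 members. Where several lengths fitted, the one nearest the GENCODE 29 transcript was taken, reduced to its shortest accepted divisor. Ratio intervals are exact binomial (Clopper-Pearson) at 95%, and PCR copies cannot be told from molecules, so they cover counting error only. A lowess (span 0.3, statsmodels 0.14.6) of differences on GC content of the longest coding GENCODE transcript gave the GC trend. The steps were tested on simulated data. Alternatives were a pseudocount of 0.1, median-ratio scaling, GC trend removal and no RPKM minimum. Members, gene lists and rules were chosen with earlier results of these data known. The genes named were all members, up to 3 genes each way per list and comparison past 1.5-fold, and the 4 genes most like LEF1 and like TCF7, the other member of widest range. Other genes named (TLE2, TLE4, TLE6, PYGO1, CXCR5, the catenins and cadherins, and markers) were added to describe families, overlaps or cell identity.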

Additional observations from a re-analysis of the deposited data

How the results depend on the processing

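The count of members past 1.5-fold was 3 for RIPK4 against Vector as deposited and 0 with median-ratio scaling or with the GC trend removed. It was 1 for RIPK3 and 1 for RIPK2 against Vector and 0 in both with the GC trend removed. For RIPK4 against Wnt3a it was 0, and 1 with a pseudocount of 0.1, where LEF1 reached -0.62. For Wnt3a against Vector it was 3, with 2 when the GC trend was removed and 4 with a pseudocount of 0.1 or median-ratio scaling, where TCF7L2 was past the line as lower. For RIPK1 against Vector it was 0 throughout. The share of all genes 1.5-fold higher than Vector also fell with the trend removed. It went from 7.95% to 2.49% with Wnt3a, 4.92% to 1.54% with RIPK4, 6.02% to 3.94% with RIPK3 and 7.56% to 3.90% with RIPK2. Median-ratio scaling took the RIPK4 share to 3.29%. Of 60 member differences, 33 moved by more than their counting interval with the GC trend removed, 1 with median-ratio scaling and none with the smaller pseudocount or without the RPKM minimum. Removing the trend changed the sign of 13 differences, none of them past 1.5-fold as deposited. The cause was not tested. The LEF1 share of TCF/LEF RPKM moved by less than its counting error with the smaller pseudocount. It cannot change with median-ratio scaling or without the RPKM minimum, and GC trend removal gives no share. No paired analysis was possible because each group has 1 library, and no replicate could be left out. LEF1, with 182 to 519 reads, had the widest intervals of the members.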

Other observations

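Beta-catenin is shared between the nucleus and cadherin junctions, and the junction genes were measured beside the nuclear set. PA-1 cells held CDH2 (N-cadherin) at 71.0 RPKM with Wnt3a, 76.5 with RIPK4, 99.8 with RIPK3, 95.6 with RIPK2, 87.3 with RIPK1 and 80.6 in Vector, while CDH1 (E-cadherin) was at most 0.0673 RPKM. Alpha-catenin CTNNA1 stood at 153 to 186 RPKM and p120-catenin CTNND1 at 53.1 to 62.9. Of the 9 catenin and cadherin genes listed, 4 averaged 1 RPKM or more, and JUP alone passed 1.5-fold in any comparison. It did so with RIPK2 and RIPK3, where 7.56% and 6.02% of all genes were that much higher. JUP encodes plakoglobin, the closest relative of beta-catenin, which also binds TCF/LEF factors. It stood at 27.9 RPKM with Wnt3a, 27.6 with RIPK4, 29.04 with RIPK3 and 31.1 with RIPK2, against 18.6 with RIPK1 and 18.7 in Vector. The ratio to Vector was 1.66 with RIPK2 (1.56 to 1.77) and 1.55 with RIPK3 (1.46 to 1.66), and with the GC trend subtracted the differences were 0.37 and 0.36 on the log2(RPKM + 1) scale, under the 1.5-fold line.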
